A study of Mus musculus with 12 samples.

Results

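Shh and Gli3 were examined through the 121 called peaks that lie in 2 mm9 windows, out of 189536 peaks in 7 lists. The Shh window, chromosome 5 at 28700000 to 29750000, held 33 of them. The Gli3 window, chromosome 13 at 15400000 to 16300000, held the other 88. The windows were set by position and not by any measured value, and a peak belonged to a window if it shared at least 1 bp with it. They were chosen with earlier results of these data known.

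The lists came from chromatin immunoprecipitation and sequencing (ChIP-seq) of mouse forelimb buds. Double mutant embryos (Hoxa13-/-;Hoxd13-/-, on a mixed C57BL/6 and CD1 background, E11.5, distal forelimb) were profiled for H3K27ac and H3K27me3. Wild-type embryos of the same background, stage and tissue were profiled for both marks and for the factors HOXA13 and HOXD13, and CD1 forelimb buds at E10.5 for H3K27me3. Per the labels, Hoxa13 was disrupted by a neomycin cassette placed in its coding region and Hoxd13 by lacZ placed in exon 1. The labels' protocol calls the E11.5 cells "ZAP cells" without defining the term, while the design text speaks of dissected distal forelimb. Each profile is 1 library, so no difference below has a replicate check and no test was made. H3K27ac marks active promoters and enhancers, and H3K27me3 is laid down by Polycomb complexes at silent developmental genes. Each list averages over all cells of the tissue, so a mark on fewer cells and a weaker mark per cell cannot be told apart.

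Sonic hedgehog, the product of Shh, is a secreted signal made by posterior limb bud mesenchyme, where it sets digit number and identity. Its limb expression depends on a distant enhancer within an intron of Lmbr1. GLI3 is the zinc finger transcription factor through which the signal mainly acts in the limb: without the signal it is cut into a repressor, and mice lacking it form extra digits. HOXA13 and HOXD13 are homeodomain factors of the distal limb bud and are needed to form digits. In the RefSeq gene table of GRCm38.p6, protein-coding genes follow each other in the order Cnpy1, Rbm33, Shh, Rnf32, Lmbr1, Nom1 and Mnx1 on chromosome 5. On chromosome 13 the order is AW209491, Gli3, Inhba and Sugct. Gene models of mm9 were not used here, so a peak was placed on Shh or on the limb enhancer only by the positions 28.79 Mb and 29.64 Mb, and no peak was placed on a promoter or exon. Other genes of the Hedgehog pathway were not analysed here for the same reason.

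Shh itself lay under a broad H3K27me3 domain and under no H3K27ac peak in either genotype. In the double mutant 1 H3K27me3 peak ran from 28779662 to 28800705, over 21044 bp. In wild type it ran from 28779067 to 28801023, over 21957 bp. Both had the score 3100, which many peaks share at the top of these lists, and they were the 228th widest of 18973 autosomal peaks in the double mutant and the 260th widest of 19624 in wild type. The peak score is the value written by the peak caller, read as -10 times log10 of its p-value. It depends on read depth, which is unknown here, so scores are read within a list and not as amounts of a mark between lists.

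The double-mutant peaks covered 96.8% of the wild-type domain in 2 pieces, the small one from 28778557 to 28779275 with a score of 53.8. At E10.5 the same wild-type domain was covered over 85.1% by 4 peaks. The E10.5 peaks had scores of 975, 3100, 2810 and 68.1 from the low to the high coordinate. The gene was therefore under H3K27me3 in all 3 libraries of that mark. The E10.5 library differs from the E11.5 ones in stage, strain, antibody and dissected part, which cannot be told apart.

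Beyond the high-coordinate edge of the domain the genotypes differed in what was called. The double mutant had 1 H3K27me3 peak there, from 28805361 to 28806178 with a score of 62.9. Wild type had a peak from 28803793 to 28806240 with a score of 383, and another from 28806261 to 28807437 with a score of 93.0. The double-mutant peak overlapped the first wild-type peak and left the second without a counterpart.

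HOX13 peaks met H3K27me3 at 2 places around Shh. A HOXA13 peak from 28791575 to 28792425, with a score of 71.0, lay inside the broad domain in both genotypes and overlapped E10.5 H3K27me3 too; it had no HOXD13 partner. The other place, from 28803231 to 28804252, carried peaks of both factors, with scores of 127 for HOXA13 and 54.1 for HOXD13. It overlapped the wild-type H3K27me3 peak that starts at 28803793 and no double-mutant H3K27me3 peak. It was the only one of the 9 HOX13 sites of the window at which H3K27me3 was called beside both factors in wild type.

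**Figure D1:**
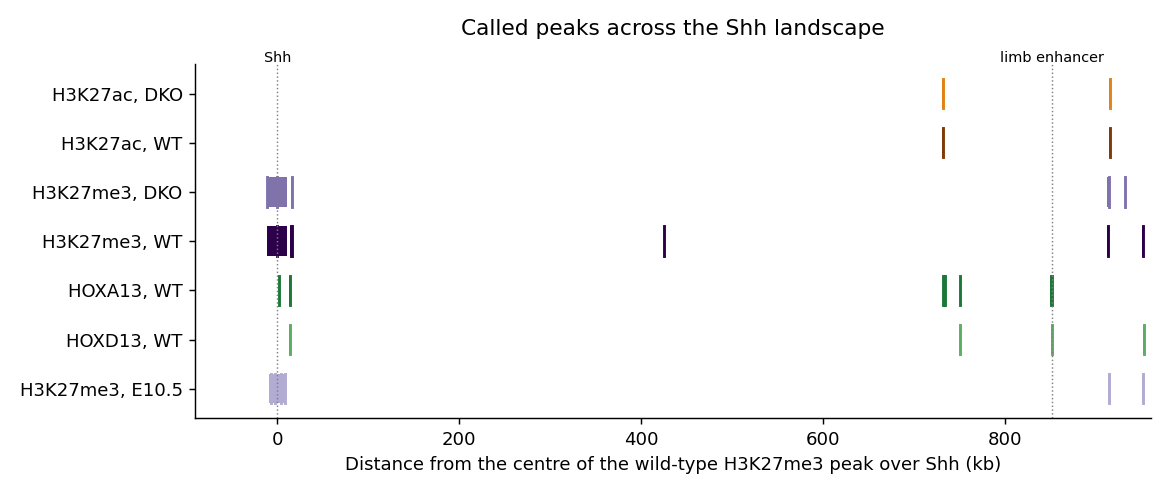
Peaks called in each of the 7 lists across the Shh window, by distance in kb from the centre of the wild-type H3K27me3 peak over Shh (DKO, double mutant; WT, wild type). Blocks are drawn to scale, with a line at each peak's centre so that narrow peaks can be seen; the broad H3K27me3 peaks lie at Shh with HOX13 peaks at 2 places, and H3K27ac and the other HOX13 peaks lie at the far end, on both sides of the enhancer.

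At the distant limb enhancer both HOX13 factors were called and neither histone mark was. HOXA13 had a peak from 29641304 to 29642406 with a score of 155, and HOXD13 had one from 29641168 to 29642421 with a score of 206. Their centres lay 61 bp apart, and the HOXD13 score was the highest of the 4 HOXD13 peaks of the window, as the HOXA13 score was of its 8. A second HOXA13 peak lay just beside them, from 29639747 to 29640516, with a score of 67.3 and no HOXD13 partner. The site at the enhancer was 840 kb from the edge of the H3K27me3 domain over Shh.

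Within their lists these peaks were of middling rank: 58.2% of autosomal HOXA13 peaks and 65.2% of autosomal HOXD13 peaks scored no higher. Within 25 kb of the enhancer position there was no H3K27ac peak in the double mutant or in wild type, and no H3K27me3 peak in the double mutant, in wild type or at E10.5. The nearest H3K27ac peak to the HOX13 site was 61.6 kb away in the double mutant and 61.8 kb away in wild type. Such distances were not rare: 22.2% of the 19353 autosomal sites of both factors lay at least as far from double-mutant H3K27ac, and 20.0% at least as far from wild-type H3K27ac. The medians were 7.43 kb in the double mutant and 3.76 kb in wild type. A peak list gives no signal below the caller's threshold, so H3K27ac at the enhancer was not detected at the depth of these libraries, and its absence is not shown.

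**Figure D2:**
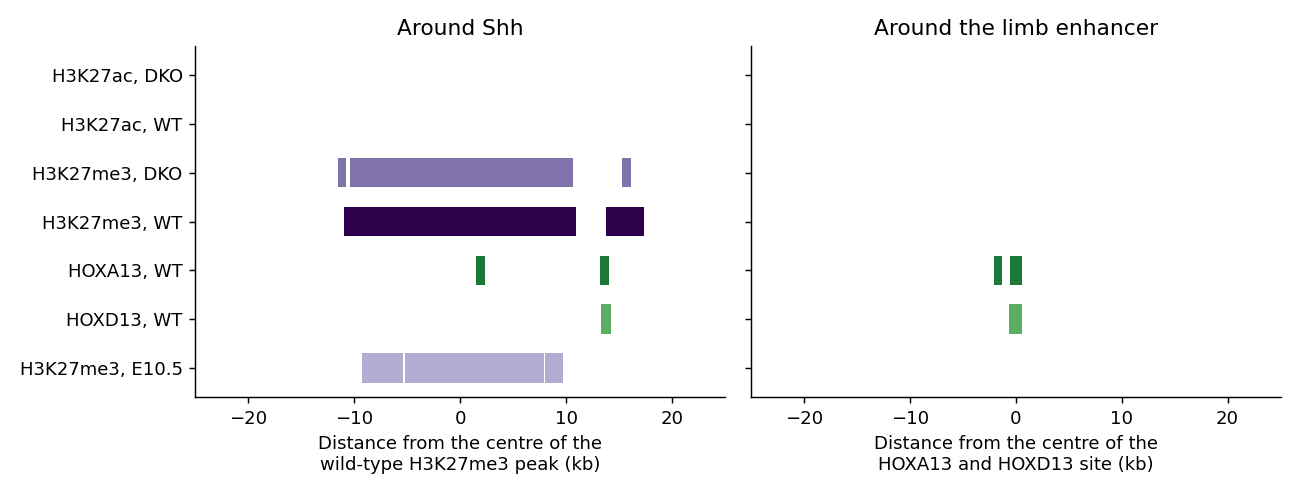
Peaks called within 25 kb of the centre of the wild-type H3K27me3 peak over Shh (left) and of the HOX13 site at the limb enhancer (right), as blocks to scale, with distance in kb on each horizontal axis (DKO, double mutant; WT, wild type). Shh shows H3K27me3 in all 3 libraries of that mark, and the enhancer shows HOXA13 and HOXD13 peaks alone.

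The remaining peaks of the window lay at its far end, apart from 1 H3K27me3 peak in the middle. H3K27ac was called at 2 places, the same ones in both genotypes. One peak ran from 29521333 to 29523411 in the double mutant, with a score of 1668, and from 29521273 to 29523342 in wild type, with a score of 2818. The other ran from 29703983 to 29706015 in the double mutant, with a score of 1156, and from 29704181 to 29705993 in wild type, with a score of 1505. So 0 of 2 peaks were called in the double mutant only, where 30.4% of autosomal double-mutant H3K27ac peaks were, and 0 of 2 in wild type only, against 15.1% of autosomal wild-type peaks. A count of 0 of 2 allows a share of up to 84.2% (exact binomial 95% interval, counting error only).

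The H3K27ac place at the lower coordinate was bound and the other was not. HOXA13 had peaks with scores of 123 and 149 overlapping the bound one and a peak with a score of 67.9 next to it, and HOXD13 had none there. Thus 1 of 2 H3K27ac peaks was bound in each genotype, where 29.3% of autosomal peaks were bound in the double mutant and 38.2% in wild type. The unbound place was overlapped on its low-coordinate side by an H3K27me3 peak in every library of that mark. That peak ran from 29702723 to 29704952 with a score of 695 in the double mutant, from 29702701 to 29704923 with a score of 1939 in wild type, and from 29703154 to 29704657 with a score of 232 at E10.5.

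H3K27me3 peaks called in 1 genotype only were small ones. In the double mutant 1 of 5 was of this kind, from 29721960 to 29722706 with a score of 65.7; over all autosomes the share was 15.8%. It was 2 of 5 when overlap had to reach 50% of either peak. In wild type 3 of 6 were, against 30.4% of autosomal wild-type peaks. They were the peak at 28806261 already given, 1 from 29214893 to 29215955 with a score of 88.5, alone in the middle of the landscape, and 1 from 29741074 to 29742185 with a score of 78.0. All 4 scored under 100, so none was left once every list was limited to scores of 100 or more; the wild-type peak from 28803793 was then without a counterpart.

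The wild-type peak at 29741074 overlapped an E10.5 peak with a score of 52.3 and a HOXD13 peak from 29741883 to 29742971 with a score of 76.4. All 6 E10.5 peaks of the window overlapped an E11.5 wild-type peak, so 0 of 6 were without one, where the share over autosomal E10.5 peaks was 13.6%; with the autosomal lists brought to equal length by score, 1 of the 6 had none.

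Of the 9 HOX13 sites of the Shh window, 3 carried both factors, 5 HOXA13 only and 1 HOXD13 only. The share with both was 33.3% (7.49 to 70.1%, exact binomial 95% interval), where it was 58.1% over all 33296 autosomal sites. The shared site not yet described lay from 29540158 to 29541095, with scores of 58.5 for HOXA13 and 97.5 for HOXD13, and overlapped neither mark. H3K27ac overlapped 2 of 9 sites in the double mutant and 2 of 9 in wild type, against 34.4% and 37.7% of autosomal sites. In wild type 4 of 9 overlapped no peak of either mark, against 55.8% of autosomal sites. Limited to scores of 100 or more, the window held 1 site of both factors, the one at the enhancer. These counts are too small to set the window apart from the rest.

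By number of peaks per Mb, the window lay below the autosomal average in every list. H3K27ac had 1.90 peaks per Mb in each genotype, where the autosomal averages were 15.5 in the double mutant and 13.0 in wild type. HOXA13 had 7.62 peaks per Mb, against 12.7 over the autosomes, and HOXD13 had 3.81, against 9.28. H3K27me3 came nearer to its averages, with 4.76 peaks per Mb in the double mutant against 7.87 on autosomes, 5.71 in wild type against 8.14, and 5.71 at E10.5 against 6.26. By length it was close to them: its peaks covered 2.43% of the window in the double mutant, against 2.49% of the autosomes. The shares were 2.86% against 3.08% in wild type and 2.04% against 2.08% at E10.5. Between the region of Shh and the far end, no HOXA13 peak was called over 717 kb and no HOXD13 peak over 736 kb.

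The Gli3 window was the reverse, with many H3K27ac and HOX13 peaks and a single place with H3K27me3. The double mutant had 24 H3K27ac peaks, or 26.7 per Mb, and wild type had 16, or 17.8 per Mb. Called H3K27ac covered 46077 bp of the window in the double mutant and 36397 bp in wild type. HOXA13 had 23 peaks, or 25.6 per Mb, and HOXD13 had 19, or 21.1 per Mb. All 4 densities were above the autosomal averages of their lists.

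The highest scoring H3K27ac peak ran from 15552950 to 15562136 in the double mutant and from 15553293 to 15560961 in wild type, with a score of 3100 in both. At 9187 bp it was the 209th widest autosomal H3K27ac peak in the double mutant, and at 7669 bp the 153rd widest in wild type. Next in score was a peak from 15431500 to 15437625 in the double mutant (score 1293) and from 15431890 to 15436871 in wild type (score 1376). The third ran from 15639119 to 15644679 in the double mutant (score 825) and from 15640007 to 15644684 in wild type (score 903). These 3 places led both lists in the same order, and each held peaks of both HOX13 factors.

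**Figure D3:**
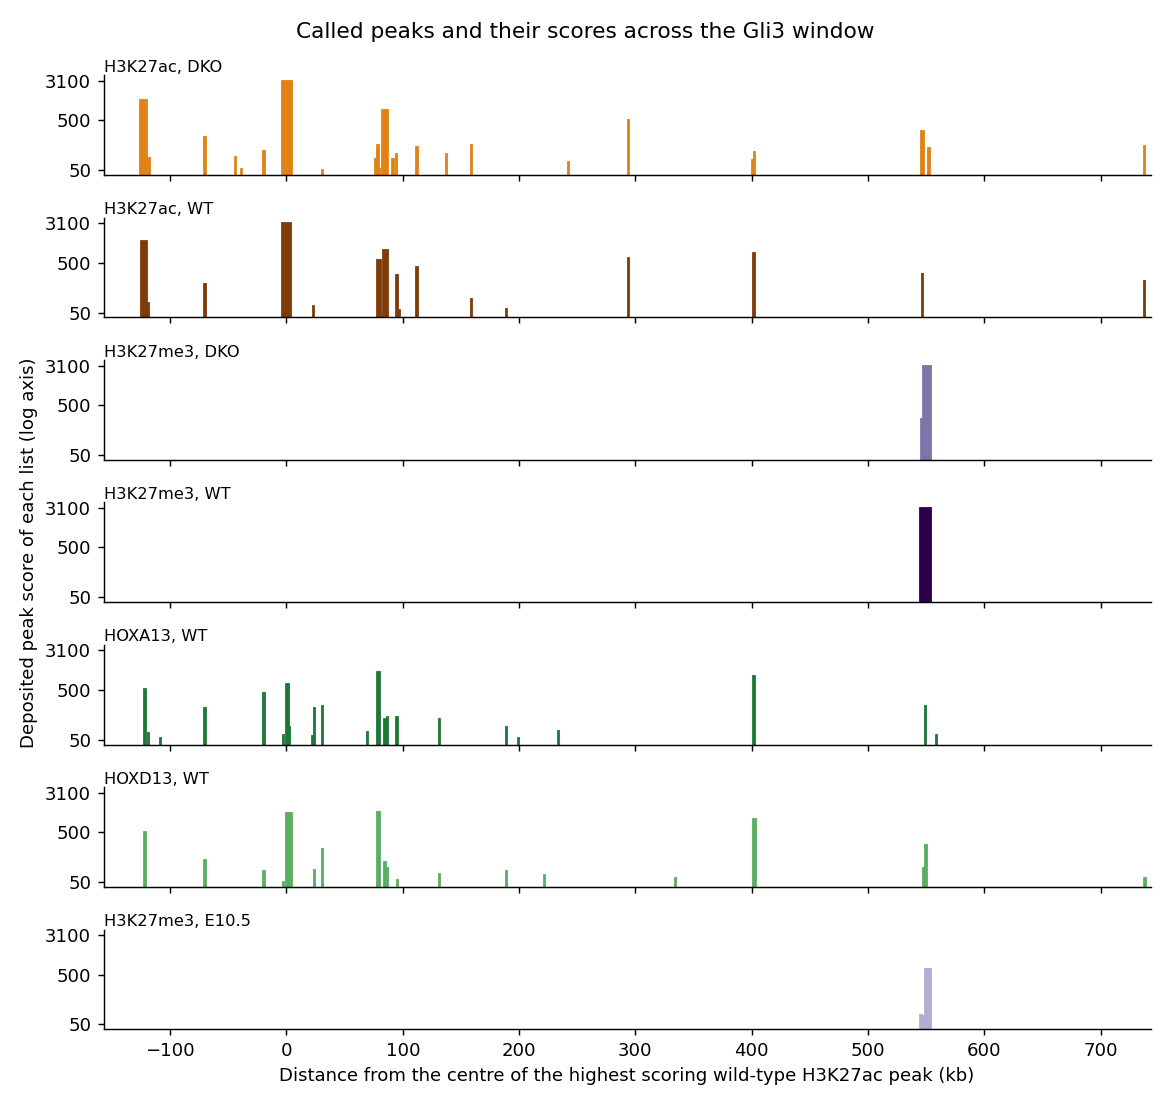
Peaks of each list across the Gli3 window, drawn to scale in width, with the deposited peak score as height (log axis) and distance in kb from the centre of the highest scoring wild-type H3K27ac peak (DKO, double mutant; WT, wild type). Scores are read within a panel only; the 26 HOX13 sites run along most of the window, and H3K27me3 is confined to 1 place in all 3 of its lists.

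HOX13 sites numbered 26, of which 15 carried both factors, 7 HOXA13 only and 4 HOXD13 only. The share with both, 57.7% (36.9 to 76.6%), was close to the autosomal 58.1%. Over the 15 shared sites the median scores were 219 for HOXA13 and 127 for HOXD13, against 203 and 156 over all autosomal shared sites. The sites of a single factor scored low, between 53.3 and 74.5 for HOXA13 and between 59.6 and 97.7 for HOXD13.

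The strongest calls were shared. The site with the highest HOXA13 score ran from 15635260 to 15637268, with scores of 1124 for HOXA13 and 1264 for HOXD13. The site from 15957922 to 15960975 followed, with 964 and 916. At the first, 96.5% of autosomal HOXA13 peaks and 96.7% of autosomal HOXD13 peaks scored no higher; at the second the shares were 95.4% and 94.4%. These were the highest scores of the window for HOXA13, and both sites overlapped H3K27ac in both genotypes.

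The third site lay under the highest H3K27ac peak, from 15556544 to 15561887, and had scores of 660 for HOXA13 and 1213 for HOXD13. Its HOXD13 peak was 5259 bp long, the 17th widest of 22372 autosomal HOXD13 peaks, and met 2 separate HOXA13 peaks. The fourth, from 15434424 to 15436286, had 531 and 508 and lay under the second highest H3K27ac peak. The fifth differed between factors, with 440 for HOXA13 and 83.5 for HOXD13, from 15537307 to 15538703; H3K27ac was called there in the double mutant and not in wild type.

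**Figure D4:**
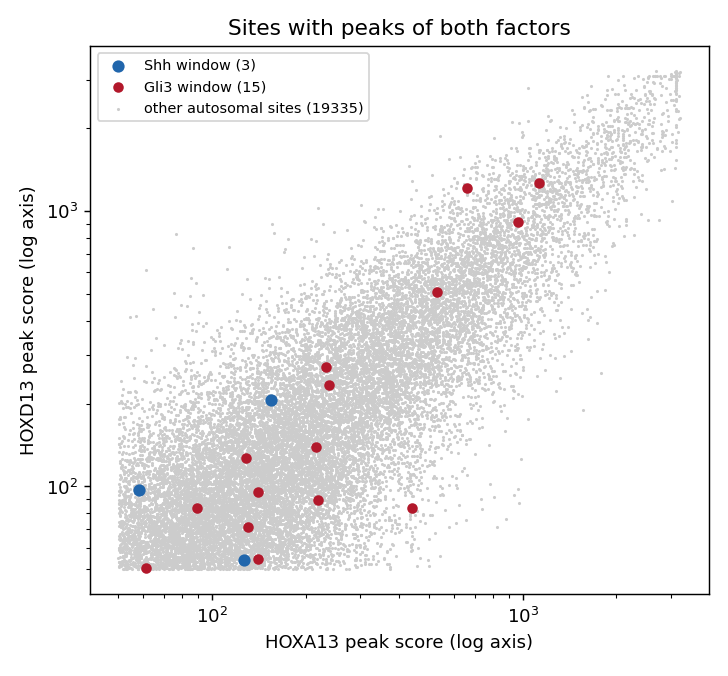
HOXA13 score against HOXD13 score, both on log axes, of the 19353 autosomal sites that carry peaks of both factors, with the highest peak of each factor per site; the 3 sites of the Shh window and the 15 of the Gli3 window are marked. The Gli3 sites reach from the lowest scores to above 1000 for both factors, and the 3 Shh sites stay at 155 or less for HOXA13 and at 206 or less for HOXD13.

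HOX13 binding and H3K27ac often met in the Gli3 window. Of the H3K27ac peaks, 14 of 24 were bound in the double mutant, or 58.3% (36.6 to 77.9%), against 29.3% over the autosomes. In wild type 12 of 16 were, or 75.0% (47.6 to 92.7%), against 38.2%. Bound here means overlap with a wild-type HOXA13 or HOXD13 peak, since binding was mapped in wild type alone. Both intervals lie above the autosomal shares, but peaks of 1 locus share their surroundings and are not independent. Limited to scores of 100 or more, 7 bound wild-type H3K27ac peaks and 8 sites of both factors were counted. The autosomal share of bound peaks at this limit is not given here, so the comparison with the autosomes covers the full lists only.

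Seen from the sites, 14 of 26 overlapped H3K27ac in the double mutant, or 53.8%, where 34.4% of autosomal sites did. In wild type 14 of 26 did as well, where 37.7% of autosomal sites did. The same number did not mean the same sites: 12 overlapped called H3K27ac in both genotypes, 2 in the double mutant only, 2 in wild type only and 10 in neither. Autosomal shares of these classes are not given here, so nothing particular to Gli3 is read from them. In wild type 11 of 26 overlapped no peak of either mark, or 42.3% (23.4 to 63.1%), against 55.8% over the autosomes.

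More H3K27ac peaks were called in the double mutant only than in wild type only. In the double mutant 9 of 24 had no wild-type counterpart, or 37.5% (18.8 to 59.4%), near the autosomal 30.4%. In wild type 3 of 16 had no double-mutant counterpart, or 18.8% (4.05 to 45.6%), near the autosomal 15.1%. Both shares are thus close to those of their whole lists, and nothing particular to Gli3 is read from them. Deeper libraries give longer lists, and the depth of these libraries is unknown.

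Double-mutant H3K27ac peaks that overlapped no HOX13 peak lacked a wild-type counterpart more often than bound ones, here and over the autosomes. No counterpart was called for 7 of the 10 unbound peaks and 2 of the 14 bound ones, where the autosomal shares were 37.5% and 13.4%. Of the wild-type peaks, 1 of the 4 unbound and 2 of the 12 bound ones had no double-mutant counterpart. The autosomal shares for wild type were 11.2% and 21.3%, so there the bound peaks lacked one more often. The wild-type counts of the window are too small to compare. Unbound peaks can still lie close to a HOX13 site: the double-mutant peak ending at 15634771 lay just before the site starting at 15635260. Of the peaks called in the double mutant only, the 5 with the highest scores were at 16108914 to 16110191 (score 139), 15537321 to 15538345 (score 121), 15694316 to 15695402 (score 104), 15512926 to 15513937 (score 93.4) and 15633595 to 15634771 (score 85.1). The second of these is the fifth HOX13 site above. The other bound one, from 15587593 to 15588211 with a score of 51.6, lay on a site with scores of 238 for HOXA13 and 233 for HOXD13.

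The 3 peaks called in wild type only all scored low. They ran from 15580213 to 15581194 (score 68.4), from 15745678 to 15746906 (score 59.1) and from 15653986 to 15654715 (score 57.0). The first lay on a HOX13 site with scores of 219 for HOXA13 and 89.0 for HOXD13, the second on a site with 89.2 and 83.9, and the last on no HOX13 peak. Limited to scores of 100 or more, the lists gave 4 H3K27ac peaks in the double mutant only and 0 in wild type only. The 4 included the double-mutant peak from 15715829 to 15717002 (score 163), whose wild-type counterpart (score 91.8) fell below the limit. Autosomal shares at this limit are not given here, so nothing particular to Gli3 is read from these counts.

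The 13 H3K27ac regions called in both genotypes were mostly wider in the double mutant. Length under called peaks was greater there at 8 of 13 and smaller at 5, and the ratio of double mutant to wild type ran from 0.756 to 1.47. Over all 25317 such autosomal regions the median ratio was 1.08 and 30.9% were narrower in the double mutant. The median over the 13 was 1.13, so most of the Gli3 regions followed the lists as a whole.

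The regions at the 2 HOX13 sites with the highest HOXA13 scores were among the 5 narrower ones. At the first, called H3K27ac covered 2779 bp in 2 double-mutant peaks, with scores of 162 and 53.7, and 3363 bp in 1 wild-type peak with a score of 569. A further double-mutant peak of 1177 bp, from 15633595 to 15634771, ended just before these 2. It overlapped no wild-type peak and was left out of that length. With it counted, the length would be greater in the double mutant than in wild type. At the second site, called H3K27ac covered 2138 bp in 2 double-mutant peaks, with scores of 116 and 80.5, and 2446 bp in 1 wild-type peak with a score of 803. Among the 13 regions ordered by highest score within each list, the second held place 11 in the double mutant and place 4 in wild type, and the first held place 8 in the double mutant and place 6 in wild type. Such shifts were not limited to split regions or to HOX13 sites. The unsplit region at 15651097 to 15652774, bound by both factors, held place 12 in the double mutant (score 105) and place 9 in wild type (score 282). The unsplit region at 15668346 to 15669986, with no HOX13 peak, held place 10 in the double mutant (score 146) and place 7 in wild type (score 414). In the other direction, the bound region at 15486328 to 15487877 held place 6 in the double mutant and place 11 in wild type, and the unbound one at 15715829 to 15717002 place 7 in the double mutant and place 12 in wild type. Whether splitting by the peak caller bears on a region's place was not tested.

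The other narrower regions included both unsplit ones that held a later place in the double mutant: the one at 15651097 covered 1269 bp in the double mutant and 1678 bp in wild type, and the one at 15668346 covered 1407 bp in the double mutant and 1641 bp in wild type. The last, at 16294336 to 16295547 and bound by HOXD13, covered 1174 bp in the double mutant and 1196 bp in wild type. Across the autosomes 2.27% of regions were 1 peak in wild type and 2 or more in the double mutant. By binding, it was 4.01% of bound regions and 1.27% of unbound ones, and 36.1% and 27.9% of these were narrower in the double mutant. The share was 7.67% among the 1343 regions whose HOXA13 score was in the highest 10% of its list, at 586 or more, and 45.6% of those were narrower in the double mutant. Of the Gli3 regions, the 2 split ones belong to that class, and so does the region of the highest H3K27ac score, which was wider in the double mutant (ratio 1.20). With 1 library per genotype these differences were not tested. The opposite case, 1 double-mutant peak and 2 or more wild-type peaks, was not counted over the autosomes. The shares of split regions therefore do not show whether splitting was more frequent in the double mutant.

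**Figure D5:**
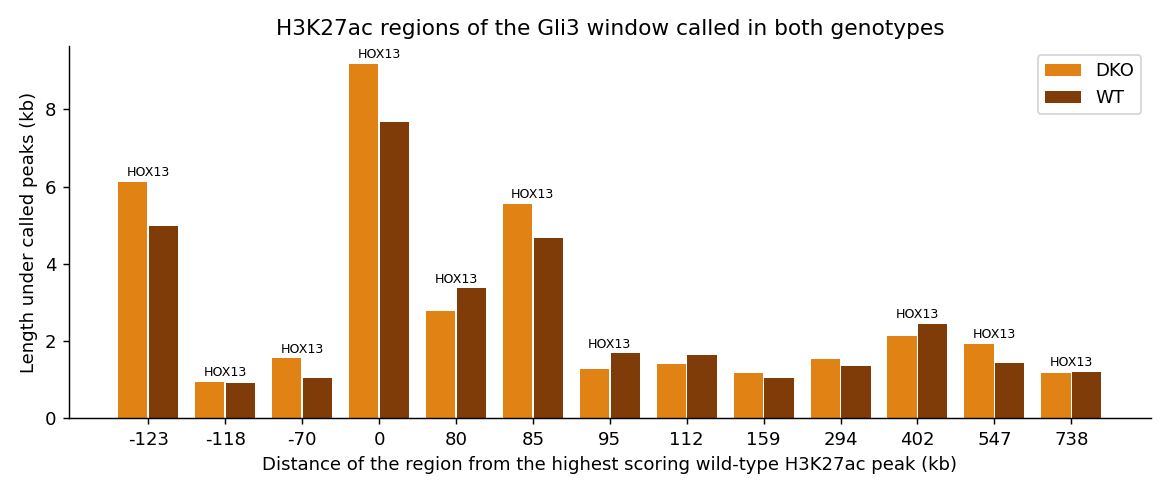
Length in kb under called H3K27ac peaks in the double mutant (DKO, left bar) and in wild type (WT, right bar) for the 13 regions of the Gli3 window called in both, in order along the chromosome; regions overlapping a HOXA13 or HOXD13 peak are marked HOX13. Bars come from 1 library each and have no error; the 9187 bp and 7669 bp of the highest scoring region stand out, and 5 of the 13 regions have the shorter bar in the double mutant.

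H3K27me3 in the Gli3 window was called at 1 place, toward the high end of the window. In the double mutant it was called from 16102686 to 16104214 (score 263) and from 16104711 to 16111277 (score 3100). In wild type 1 peak ran from 16101450 to 16111410 (score 3100), and at E10.5 there were 3 peaks, with scores of 77.2, 75.3 and 658. The double-mutant peaks covered 81.3% of the wild-type peak and the E10.5 peaks 84.1%. No peak was without a counterpart: 0 of 2 in the double mutant and 0 of 1 in wild type lacked one in the other genotype, and 0 of 3 at E10.5 lacked one in E11.5 wild type. There was no H3K27me3 peak elsewhere in the window in any of the 3 libraries.

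That place carried H3K27ac as well. An H3K27ac peak from 16102992 to 16104911 in the double mutant (score 301) and from 16103288 to 16104726 in wild type (score 304) overlapped the domain. The double mutant had a further H3K27ac peak inside it, the one at 16108914 with no wild-type counterpart and no HOX13 peak. HOX13 sites within the domain were a HOXD13 peak at 16104636 to 16105746 (score 97.7) and a site of both factors at 16105927 to 16107446, with scores of 233 for HOXA13 and 272 for HOXD13. The domain was not assigned to Gli3, to Inhba or to another gene here.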

How the data were processed

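Of 12 samples, 7 immunoprecipitated libraries have a peak list and 5 are inputs, whose signal was not analysed here. The submitters' processing notes name Bowtie 0.12.7, MACS 1.4 and the build mm9. The lists were deposited per library, called against an input. None of the 5 inputs is labelled for an E11.5 H3K27me3 library of either genotype. The deposited score of each peak is the authors' value, read as -10 times log10 of a p-value; its lowest value, 50, is then 1e-05. In all 7 lists the last peak on chromosome 1 ended beyond the 195471971 bp that GRCm38 gives it, so the reference genome at hand was not used for positions or sequences.

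Positions count from 1. Peaks of different lists overlapped with at least 1 bp in common; HOXA13 and HOXD13 peaks linked by overlap formed 1 site. Shares over autosomes stand beside the main counts, since both windows are autosomal. They are not given for counts under altered settings or for sites grouped by H3K27ac in both, 1 or neither genotype. Densities use the span between the first and last peaks. Intervals are exact (Clopper-Pearson, 95%) and cover counting only. Overlap counting was tested on simulated peaks. Peaks named are those within 25 kb of Shh and of the enhancer, the 3 highest scoring per list, up to 5 called in 1 genotype only per mark and direction, and the 5 shared sites with the highest HOXA13 score; others were named after their values were seen. Windows, lists and rules were chosen with earlier results of these data known. Each group has 1 library, so no test was made. Tools were Python 3.11.15, NumPy 2.4.6, SciPy 1.17.1 and Matplotlib 3.10.9.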

Additional observations from a re-analysis of the deposited data

How the results depend on the processing

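Each of 14 counts, 7 per window, was recomputed under 4 alternatives. Counting peaks within 1000 bp as overlapping kept all 14 within 1.5 times. When overlap had to reach 50% of either peak, 1 count moved further, the Shh H3K27me3 peaks called in the double mutant only, at 2 instead of 1. With lists of equal length 1 moved, the E10.5 H3K27me3 peaks of the Shh window without an E11.5 wild-type peak, at 1 instead of 0. Limiting all lists to scores of 100 or more moved 7. In the Shh window it gave 1 HOX13 site of both factors instead of 3, no H3K27me3 peak called in the double mutant only (0 instead of 1) and 1 in wild type only instead of 3. In the Gli3 window it gave 8 sites of both factors instead of 15, 4 H3K27ac peaks called in the double mutant only instead of 9, 0 in wild type only instead of 3, and 7 bound wild-type H3K27ac peaks instead of 12. The counts that moved with the score limit thus rest partly on peaks scoring between 50 and 100, where read depth, unknown here, limits what can be called. Autosomal shares are not given for these alternatives, so the recomputed counts describe the windows alone. No paired analysis was possible because each group holds 1 library. No replicate could be left out.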
